A study of Mus musculus with 6 samples.

Results

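Actin assembly and bundling genes encode the proteins that start, lengthen, cut, cap and tie together actin filaments. They were followed here in mouse primary oligodendrocyte precursor cells (OPCs), the glial cells that give rise to the myelin-forming oligodendrocytes of the central nervous system. Members were taken by gene symbol alone: the subunits of the Arp2/3 complex, the Wasf and Was proteins, formins, Ena/VASP proteins, cofilins, profilins, cyclase-associated proteins, gelsolin, capping proteins, adducins, tropomodulins, tropomyosins, alpha-actinins, fascins, cortactin and the spectraplakins Dst and Macf1. The rule found 58 genes of the 23038 listed in each library. The series holds 6 poly(A) RNA libraries. Libraries named siNC (n = 3) came from OPCs given control siRNA, and libraries named siQk (n = 3) from OPCs given siRNA against Qk, the gene of the Qki RNA-binding proteins. The study's methods describe OPCs purified by immunopanning from E14.5 embryos and collected 72 h after transfection, and 3 different Qk siRNAs were used. Which siRNA went into which siQk library is not given in the sources used here, so siRNA sequence and replicate cannot be told apart.

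Actin monomers join into filaments that grow mainly at the barbed end and lose subunits at the pointed end. The Arp2/3 complex, switched on by Wasf and Was proteins, starts new branches on existing filaments, whereas formins start and lengthen unbranched ones and Ena/VASP proteins speed growth at the barbed end. Cofilins cut old filaments, profilins and cyclase-associated proteins recycle monomers, and capping proteins, adducins and tropomodulins close the filament ends. Oligodendrocyte lineage cells are known for extending actin-rich processes as precursors and for taking filaments apart as they wrap axons.

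Library totals ran from 58166490 to 141045937 tags, the smallest being siNC replicate 1, in which the ribosomal RNA gene Rn45s took 3.11% of tags against 0.169% to 0.389% in the other 5 libraries. Qk itself stood at 209, 206 and 163 RPKM (reads per kilobase of exon, scaled to library depth) in the siNC libraries and at 51.3, 76.6 and 36.2 RPKM in the siQk libraries, a log2 fold change of -1.98 (SE 0.28, edgeR FDR 0.00311). Markers of mature oligodendrocytes (10 genes) summed to 3514 to 6126 RPKM in siNC and to 1515 to 2278 RPKM in siQk, and 8 of the 10 were called lower. Cell cycle markers (15 genes) summed to 92.2 to 109 RPKM in siNC and 165 to 291 RPKM in siQk, with 13 of 15 called higher. OPC markers (10 genes) summed to 1064 to 1145 RPKM in siNC and 1285 to 1449 RPKM in siQk. The other marker lists were astrocyte (10 genes, 299 to 419 RPKM in siNC and 297 to 321 in siQk), neuron (10 genes, 203 to 284 and 217 to 266), microglia and blood (10 genes, 2.78 to 5.87 and 1.39 to 2.15), fibroblast, vascular and smooth muscle (14 genes, 1.88 to 2.07 and 1.98 to 2.25) and striated muscle (12 genes, 5.10 to 5.35 and 3.90 to 5.05). The astrocyte and neuron sums overlapped between groups, but single markers moved: of 9 astrocyte markers tested 4 were called lower (Gfap, Aldh1l1, Slc1a3 and Slc1a2) and 1 higher (Sox9), and of 9 neuron markers tested 3 were called higher (Snap25, Nefl and Map2, listed as Mtap2). OPC markers were called higher in 4 of 10 cases and lower in 1 (Lhfpl3). Of the 2 markers tested in each of the microglia and striated muscle lists 1 was called lower, and the 1 fibroblast and vascular marker tested was not called. Of all these markers, C1qa, Cldn5, Myod1 and Des were at 0 in every library. The part of these shifts in the actin gene results was not tested. In whole-culture RNA, fewer cells of a type and less RNA per cell cannot be told apart.

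Qki proteins bind RNA at a core motif written ACTAAC or ACTAAT in DNA letters. The longest annotated 3'UTR of each member was therefore searched for these letters on the transcript strand. The sites below are all those found in the 15 called members with the largest changes. Each is 30 bases with the motif in capitals, read from GENCODE transcripts placed on GRCm38 (mm10), and each lies in a 3'UTR.

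Tmod2, chr9:75570741-75570770, minus strand: ggagttattaatACTAATaagattgtagaa
Tmod2, chr9:75570667-75570696, minus strand: tataagattattACTAATcagctgttttat
Tmod2, chr9:75568268-75568297, minus strand: aacaatatcttcACTAACtacctcacagaa
Tmod2, chr9:75565927-75565956, minus strand: aggaatctaaagACTAACttgccttttaaa
Tmod2, chr9:75565850-75565879, minus strand: tatagagtgtaaACTAATtttatcctcata
Arpc1a, chr5:145108675-145108704, plus strand: gaagattgtcacACTAACttaaaggggaag
Dstn, chr2:143942691-143942720, plus strand: cacctaatatacACTAACagcagtaagact
Dstn, chr2:143942937-143942966, plus strand: tgtctcgcaacaACTAATtatattgcaaat
Add3, chr19:53245638-53245667, plus strand: tgcttacttgtcACTAATcagaccttgagt
Add3, chr19:53246704-53246733, plus strand: ctcttagacctcACTAACtactggagcctg
Wasl, chr6:24615748-24615777, minus strand: accactcactacACTAATgcagtttttcaa
Wasl, chr6:24615081-24615110, minus strand: tctttacagtacACTAATccgcctaaaggt
Wasf2, chr4:133195921-133195950, plus strand: tcctccatacaaACTAACagtctcatgggg
Wasf2, chr4:133199193-133199222, plus strand: ctgacttgagaaACTAACcaatttttacct
Cfl2, chr12:54858954-54858983, minus strand: ccttatgttgagACTAATttcacatcttat
Fmnl3, chr15:99317868-99317897, minus strand: gagagtatccacACTAATggatccctggac

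Of the 50 members tested, 19 (38.0%, 95% Wilson interval 25.9 to 51.8) held at least 1 such motif in their longest annotated 3'UTR, beside 37.0% of the 11850 tested genes with a 3'UTR. Among members called lower in siQk, described next, 9 of 18 held it, at 0.447 motifs per kilobase. Of the 6 called higher, 3 held it, at 0.193 per kilobase, and of the 26 not called 7 held it, at 0.243 per kilobase, beside 0.329 per kilobase over all tested genes. The letters were absent from the longest annotated 3'UTR of each of the others of these 15, Arpc1b, Fmnl2, Add1, Actn1, Evl, Wasf3 and Dst. Introns were not searched and exon use was not measured here. The paper describes alternative exons of Evl and Dst whose use varied with Qki5. Since serum response factor (SRF) and its MRTF partners drive many actin genes, promoter windows of 250 bases before to 50 after the start were also searched on both strands for the CArG box that SRF binds. The box was found in 1 of 45 tested members with a window (2.22%), Arpc4, and in 1.55% of 9975 windows of tested genes.

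More of the actin assembly genes were lower than higher in the siQk libraries. A call required both P below 0.01 and an FDR below 0.1 in edgeR's quasi-likelihood test over all 12505 genes with an average log2 CPM (depth-scaled counts) above 0. Of the 50 members tested, 24 (48.0%) were called, 6 higher and 18 lower, while 31.0% of all tested genes were called, 13.8% higher and 17.2% lower. The median log2 fold change of the tested members was -0.21, beside 0.010 for all tested genes, and 37 of the 50 values were negative. A log2 fold change of at least 1 in size accompanied the call in 4 members, Arpc1b, Fmnl2, Tmod2 and Fmnl3, and in 7.21% of all tested genes. With library size as the only scaling, the median of all genes moved to 0.16. Then 17 of the 50 members were called, 6 higher and 11 lower, beside 34.8% of all tested genes. Without siQk replicate 2 the members called higher fell from 6 to 3, and the share of all tested genes called fell from 31.0% to 21.5%. Deposited RPKM values carry no such scaling factor: the 3 siNC and 3 siQk values stood apart in 58.3% of all tested genes, 41.9% higher and 16.4% lower in siQk, and in 26 of the 50 members, 11 higher and 15 lower. Folds taken from RPKM therefore lie above those of the test.

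**Figure D1:**
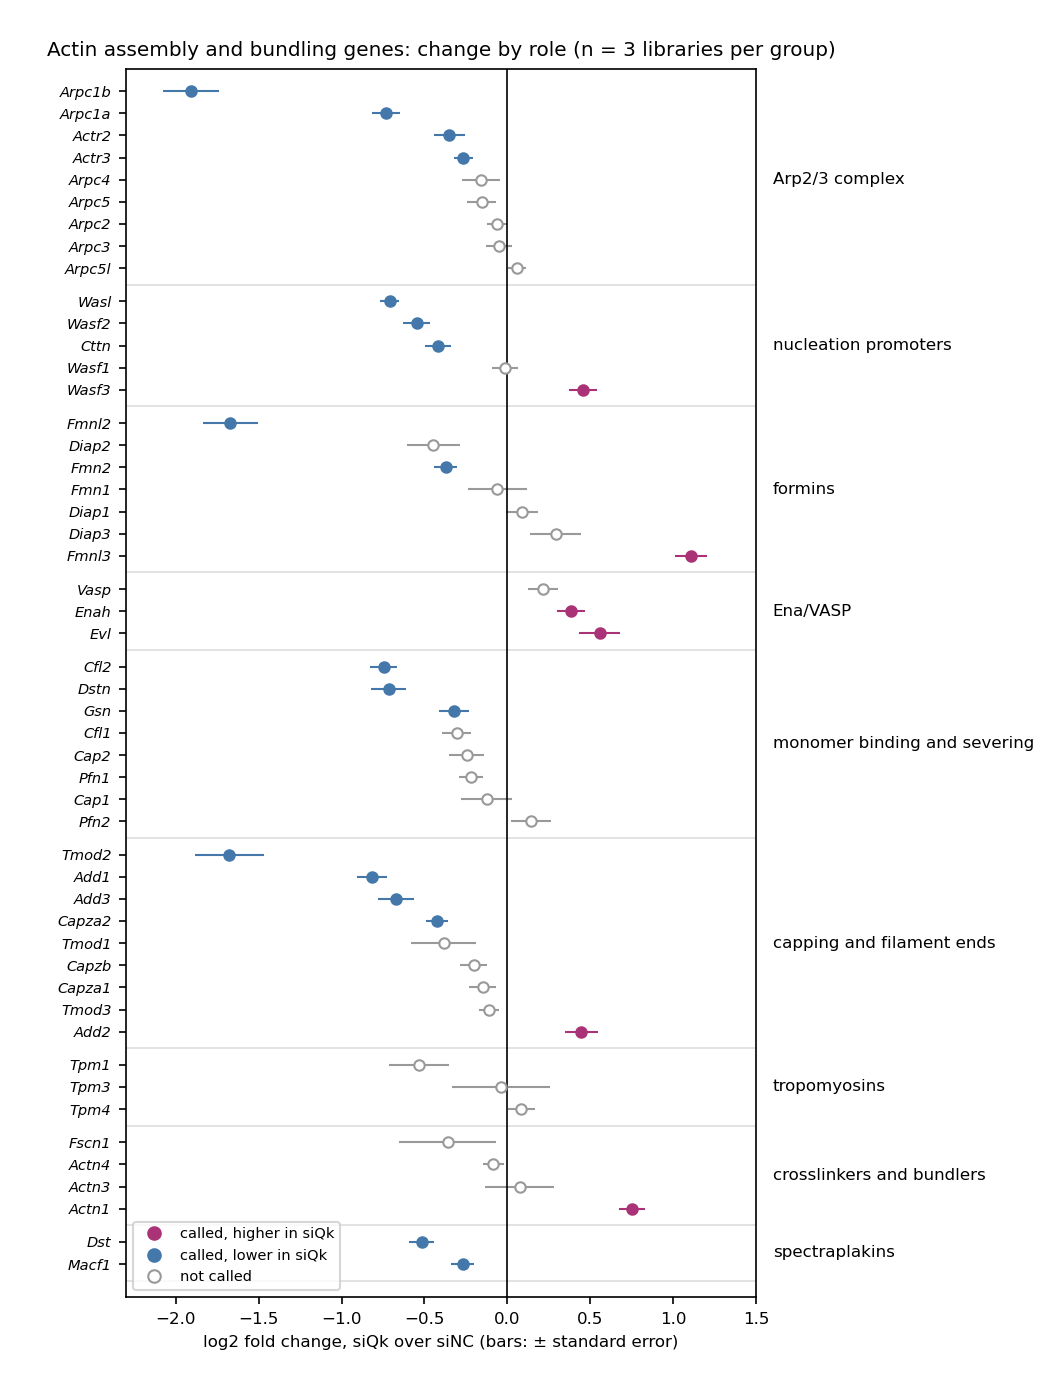
Log2 fold change of siQk over siNC for the 50 tested members, grouped by role (points, edgeR estimate from 3 libraries per group; bars, ± standard error; filled points are called, blue lower and purple higher). Arpc1b, Tmod2 and Fmnl2 lie farthest to the left at -1.91, -1.68 and -1.67, and Fmnl3 farthest to the right at 1.11.

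In the Arp2/3 complex, transcripts of the Arpc1 subunit were lower in siQk. Of 9 genes in the class 4 were called lower and none higher, beside 17.2% and 13.8% of all tested genes. Arpc1 is the propeller-shaped subunit, made by Arpc1a or Arpc1b, that helps the complex receive its activators. Arpc1b, on chr5:145114215-145130705, stood at 403, 345 and 287 RPKM in the siNC libraries and at 113, 90.8 and 105 RPKM in the siQk libraries. Its values did not overlap, and it was 3.75-fold lower (log2 fold change -1.91, SE 0.17, FDR 0.000895). The neighbouring Arpc1a, the most abundant member of the class, fell from 393, 416 and 369 RPKM to 267, 257 and 264 RPKM (-0.73, SE 0.083, FDR 0.00166). Both paralogs were lower, but by different amounts: Arpc1b made up 46.6% ± 3.6 (SD, n = 3) of their summed RPKM in siNC and 28.0% ± 1.8 (SD, n = 3) in siQk. A share does not depend on how libraries are scaled, and 24 of the 38 shares computed did not overlap between groups. The difference of 18.6 points had the smallest p that 3 against 3 libraries allow in a two-sided exact permutation test (0.1, adjusted p = 0.158 over 38 shares), so no share could pass 0.05. Of the exon bases GENCODE gives Arpc1b, 931 of 5115 lie opposite exons of Pdap1 (at most 91.9 RPKM). The deposited RPKM used 1563 exon bases for Arpc1b, so how much of the overlap was counted is not known. The kit does not mark strand, so reads from any overlap counted cannot be assigned.

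The actin-related proteins that form the start of a branch gave smaller values. Actr2 was at 63.9, 67.0 and 68.7 RPKM in siNC and 60.5, 50.9 and 62.5 RPKM in siQk (-0.35, SE 0.094, FDR 0.0272). Actr3 had a log2 fold change of -0.26 (SE 0.058, FDR 0.0135), with RPKM ranges that overlapped. Both calls were borderline: that of Actr2 was lost on leaving out any 1 library but siQk replicate 3, and that of Actr3 on leaving out any siQk library. Both were also lost with library size as the only scaling (FDR 0.125 and 0.269), with upper quartile factors and with a replicate block. The remaining subunits Arpc2, Arpc3, Arpc4, Arpc5 and Arpc5l had log2 fold changes from -0.16 to 0.057 and were not called, although Arpc4 was called lower without siNC replicate 2 (-0.28, FDR 0.0137). Summed over the class, RPKM was 1552 ± 36 in siNC and 1200 ± 45 in siQk (SD, n = 3), a ratio of 0.773.

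Activators of the complex moved in both directions. Wasl (N-WASP), which links Cdc42 signals to Arp2/3, was at 28.3, 29.4 and 29.3 RPKM in siNC and 19.2, 19.5 and 20.4 RPKM in siQk. It was 1.64-fold lower (-0.71, SE 0.057, FDR 0.000708), and the values within each group lay close together. Wasf2 (WAVE2), a Rac effector at the leading edge, was at 18.2, 19.4 and 21.1 RPKM against 14.4, 16.7 and 13.6 RPKM (-0.55, SE 0.082, FDR 0.00394). Its paralog Wasf3 rose from 10.6, 10.3 and 11.0 RPKM to 16.2, 15.1 and 17.5 RPKM (0.46, SE 0.085, FDR 0.00775). Wasf1, the most abundant Wasf gene at 88.2 to 111 RPKM over the 6 libraries, had a log2 fold change of -0.016 and was not called. Within the Wasf family, Wasf2 went from 15.7% to 11.0% of summed RPKM and Wasf3 from 8.56% to 12.1%. Neither share overlapped between groups, as was so for 24 of all 38 shares. Cortactin (Cttn), which stabilises branches, was the most abundant gene of the class and was at 126, 116 and 140 RPKM in siNC and 106, 105 and 106 RPKM in siQk (-0.42, SE 0.080, FDR 0.00847). The call for Cttn was lost with library size as the only scaling. Was, the blood-cell relative of Wasl, was not tested and reached at most 0.0129 RPKM.

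Formins showed the widest spread of any class, from Fmnl2 at -1.67 to Fmnl3 at 1.11. Fmnl2, a formin of lamellipodia and filopodia and the most abundant one here, lay on chr2:52857860-53133804 and was at 151, 123 and 111 RPKM in siNC. In siQk it was at 42.0, 43.1 and 50.03 RPKM, 3.18-fold lower (-1.67, SE 0.16, FDR 0.00109), and the groups were far from overlapping. Fmnl3, a close relative, went the other way from a low level, with 3.37, 3.99 and 3.44 RPKM in siNC and 9.08, 8.04 and 8.71 RPKM in siQk (1.11, SE 0.096, FDR 0.000869). Of the summed Fmn and Fmnl RPKM, Fmnl2 made up 84.7% ± 3.0 in siNC and 63.9% ± 2.6 in siQk (SD, n = 3). Fmnl3 went from 2.41% to 12.2% and Fmn2 from 11.6% to 21.1% of that sum. Fmn2 was itself called lower (-0.37, SE 0.069, FDR 0.00797), with RPKM ranges that overlapped. Its larger share thus came with a smaller sum. Summed Fmn and Fmnl RPKM was 151.1 ± 19.2 in siNC and 70.44 ± 4.25 in siQk (SD, n = 3). With the Diap genes, the class summed to 165 ± 17 RPKM in siNC and 86.7 ± 3.2 RPKM in siQk, a ratio of 0.525. The call for Fmn2 was lost with library size as the only scaling. Diap1, Diap2, Diap3 and Fmn1 were not called, with log2 fold changes from -0.45 (Diap2) to 0.29 (Diap3), and Diap2 was called lower without siNC replicate 1 (-0.61, FDR 0.00691). Fmnl1 was not tested and reached at most 0.205 RPKM.

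Ena/VASP genes had positive log2 fold changes throughout. Evl, the most abundant, was at 53.6, 60.3 and 44.5 RPKM in siNC and 88.1, 87.0 and 84.1 RPKM in siQk (0.56, SE 0.12, FDR 0.0146). Its groups did not overlap, but the call was lost without siQk replicate 1 (FDR 0.055) or siQk replicate 2 (FDR 0.0471). Of its exon bases in GENCODE, 9.46% lie opposite exons of Degs2 (at most 10.4 RPKM). Enah was at 24.9, 30.6 and 26.1 RPKM and at 38.0, 41.1 and 39.1 RPKM (0.38, SE 0.082, FDR 0.0128), a call lost without siQk replicate 2 (FDR 0.0487). Vasp had a log2 fold change of 0.22 (FDR 0.103) and was called only without siNC replicate 3 (0.30, FDR 0.0335), among the libraries left out one at a time. Summed RPKM of the class was 96.6 ± 9.4 in siNC and 147 ± 4 in siQk (SD, n = 3), a ratio of 1.52.

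**Figure D2:**
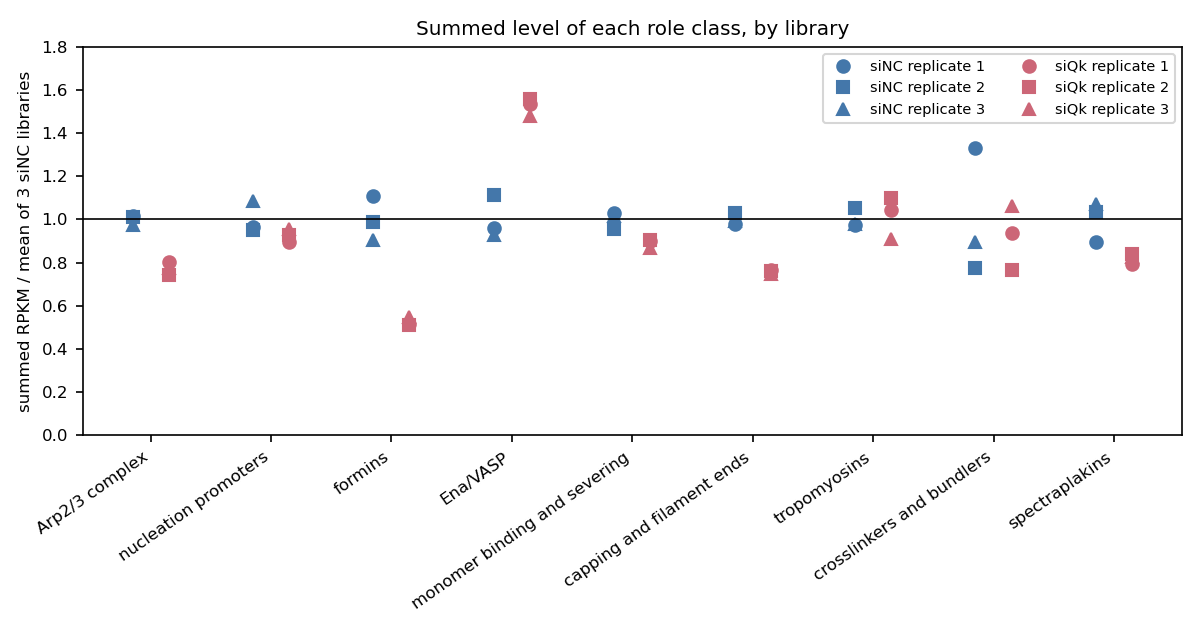
Summed RPKM of each role class in each library, divided by the mean of the 3 siNC libraries (blue, siNC; red, siQk; marker shape, replicate number). Formins in siQk sit near 0.525 and Ena/VASP genes near 1.52, while siNC replicate 1 is the highest library for crosslinkers and bundlers.

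Among genes that bind monomers or cut filaments, the less abundant cofilins fell and the main one did not pass the test. Cfl2, the cofilin best known from muscle, was at 120, 147 and 150 RPKM in siNC and 96.0, 88.7 and 90.6 RPKM in siQk (-0.75, SE 0.080, FDR 0.00137). Destrin (Dstn), a cofilin relative with strong depolymerising activity, was at 228, 186 and 202 RPKM and at 138, 142 and 137 RPKM (-0.72, SE 0.11, FDR 0.00401). Neither gene's groups overlapped. Cfl1, at 777 RPKM on average the most abundant of all 58 members, was at 855, 773 and 825 RPKM in siNC and 746, 769 and 695 RPKM in siQk. Its log2 fold change of -0.30 (SE 0.088, FDR 0.0343) missed the P cutoff at 0.0109, and it was called lower by DESeq2, by the likelihood ratio test and without siNC replicate 2. Cfl1 made up 70.4% ± 0.6 of the summed RPKM of Cfl1, Cfl2 and Dstn in siNC and 76.1% ± 0.8 in siQk (SD, n = 3). Of the 2844 exon bases GENCODE gives Cfl1, 16.5% lie opposite exons of Snx32 (at most 25.3 RPKM), whereas the deposited RPKM used 1184 exon bases.

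Gelsolin (Gsn), which cuts and caps filaments in the presence of calcium, was called lower (-0.32, SE 0.089, FDR 0.0298), but its RPKM ranges overlapped and the call was lost without any 1 of siNC replicates 2 and 3 and siQk replicates 2 and 3. It was also lost with library size as the only scaling (FDR 0.213), with upper quartile factors, with either other filter on low counts and with a replicate block. The profilins, which feed monomers to growing ends, had log2 fold changes of -0.22 (Pfn1, FDR 0.0539) and 0.14 (Pfn2, FDR 0.388), and Pfn1 was called lower by DESeq2 and without siNC replicate 2. The share of Pfn1 in their summed RPKM went from 61.5% to 55.3%, with the groups apart. Cap1 and Cap2 had log2 fold changes of -0.12 and -0.24 and were not called. Cap1 was at 48.4 RPKM in siNC replicate 3 and at 62.1 to 68.5 RPKM in the other 5 libraries, and it was called lower without that library (-0.29, FDR 0.0231).

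At the filament ends, 4 of 9 tested genes were called lower and 1 higher, beside 17.2% and 13.8% of all tested genes. Tmod2, the tropomodulin of neural tissue, which caps pointed ends, was at 57.4, 88.0 and 51.1 RPKM in siNC and 24.5, 20.5 and 23.2 RPKM in siQk. It was 3.20-fold lower (-1.68, SE 0.21, FDR 0.00224), and all 3 siQk values lay below the lowest siNC value although siNC replicate 2 stood well above the other siNC libraries. The widely expressed Tmod3 was at 31.9 to 34.3 RPKM over the 6 libraries and was not called (-0.11, FDR 0.180). Tmod2 thus went from 63.0% ± 5.5 to 37.4% ± 1.7 of the summed tropomodulin RPKM (SD, n = 3), and Tmod3 from 32.5% to 55.2%. Tmod1, at 3.37 to 5.59 RPKM, was not called, and 32.6% of its exon bases in GENCODE lie opposite exons of Tstd2 (at most 9.01 RPKM). Tmod4 was not tested and reached at most 1.07 RPKM.

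Adducins, which cap barbed ends and bind them to spectrin, divided by paralog. Add1 was at 143, 136 and 129 RPKM in siNC and 82.9, 85.2 and 89.5 RPKM in siQk (-0.82, SE 0.091, FDR 0.00157). Add3 was at 86.6, 77.2 and 86.7 RPKM and at 58.0, 66.0 and 51.1 RPKM (-0.67, SE 0.11, FDR 0.00519). Add2 went up from 10.1, 13.3 and 13.6 RPKM to 18.4, 20.2 and 17.4 RPKM (0.45, SE 0.098, FDR 0.0141), a call lost without siQk replicate 2 (FDR 0.0524), and its share of summed adducin RPKM went from 5.35% to 11.5%. Of the barbed-end capping protein, the alpha subunit gene Capza2 was called lower (-0.43, SE 0.065, FDR 0.00424), a call lost with library size as the only scaling. Capzb, the beta subunit gene and the most abundant of the class, was at 108, 107 and 128 RPKM in siNC and 115, 104 and 111 RPKM in siQk (-0.20, SE 0.082, FDR 0.0911) and was not called. Capza1 was not called (-0.15), and the testis gene Capza3 was not tested and reached at most 0.00715 RPKM. Class totals were 518 ± 14 RPKM in siNC and 393 ± 6 RPKM in siQk (SD, n = 3), a ratio of 0.757.

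**Figure D3:**
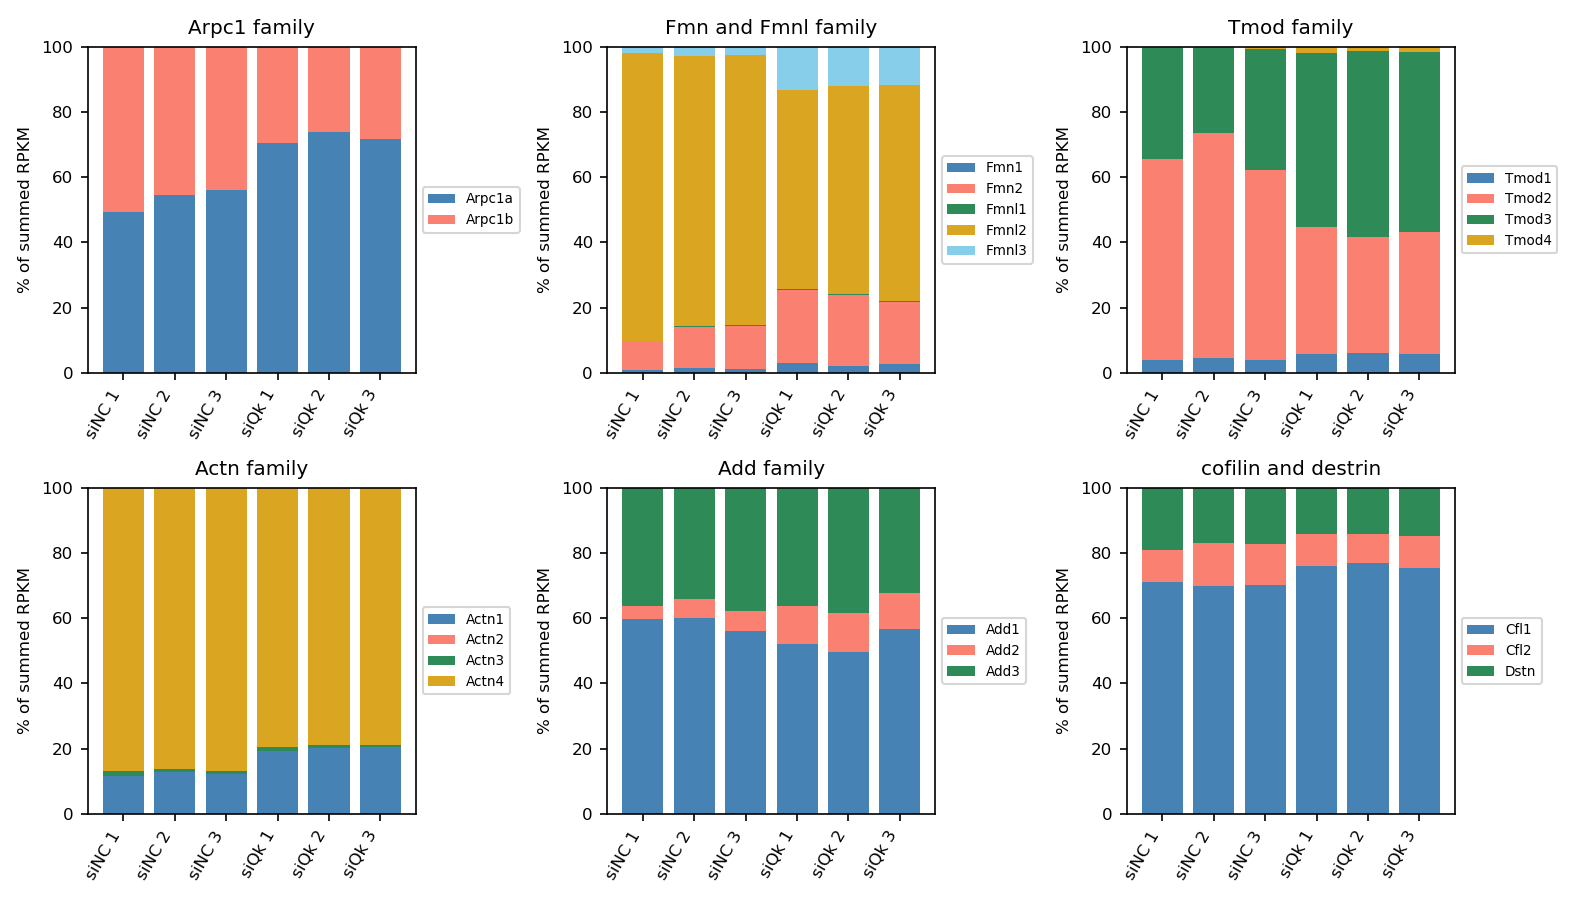
Share of each paralog in the summed RPKM of its family, in percent, for the 6 libraries (stacked bars, 1 bar per library). Arpc1b, Fmnl2 and Tmod2 take smaller shares in every siQk library than in any siNC library, and Actn1 and Add2 take larger ones. Of all 38 shares computed, 24 stood apart between groups in this way.

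No tropomyosin, the coiled-coil proteins that lie along filaments, passed the test. Tpm4, the most abundant, was at 50.9, 49.9 and 49.1 RPKM in siNC and 63.2, 59.8 and 54.0 RPKM in siQk (0.086, SE 0.080, FDR 0.429). Its RPKM ranges were apart although the scaled test gave no call. Tpm1 had a log2 fold change of -0.53 (SE 0.18, FDR 0.0569) and was called lower by DESeq2, by the likelihood ratio test and without siQk replicate 2. Tpm3 was at 10.9 RPKM in siNC replicate 3 and at 20.3 to 23.8 RPKM in the other 5 libraries, and it was called lower only when that library was left out (-0.34, FDR 0.0135), among the alternatives run. Tpm2 was not tested and reached at most 0.0362 RPKM.

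Of the genes that tie filaments into bundles and networks, Actn1 alone among the 4 tested was called. Actn1, an alpha-actinin of stress fibres and adhesions, was at 6.86, 8.02 and 7.48 RPKM in siNC and 13.3, 13.5 and 14.9 RPKM in siQk, 1.69-fold higher in the test (0.75, SE 0.079, FDR 0.00130). Actn4, the main alpha-actinin at 51.0 to 57.7 RPKM, was not called (-0.085, FDR 0.315), and the share of Actn1 in the family went from 12.2% ± 0.5 to 19.8% ± 0.6 (SD, n = 3). Fascin (Fscn1), which bundles filopodial filaments, was at 411, 211 and 253 RPKM in siNC and 261, 202 and 302 RPKM in siQk. The groups overlapped, and its log2 fold change of -0.36 (SE 0.29, FDR 0.365) rested on siNC replicate 1, being 0.029 without that library. Actn3 was not called (0.075). Actn2, Fscn2 and Fscn3 were not tested and reached at most 0.00863, 0.683 and 0.0436 RPKM.

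Spectraplakins, giant proteins that link actin to microtubules, were both called lower. Dst was at 52.0, 60.1 and 62.0 RPKM in siNC and 43.4, 46.3 and 45.1 RPKM in siQk (-0.52, SE 0.073, FDR 0.00327). Macf1 had a log2 fold change of -0.27 (SE 0.070, FDR 0.0246) with overlapping RPKM ranges, and its call was lost on leaving out any 1 library but siNC replicate 1. It was also lost with library size as the only scaling (FDR 0.313), with upper quartile factors, with no filter on low counts and with a replicate block. The share of Dst in their summed RPKM went from 68.9% ± 0.3 to 65.1% ± 0.3 (SD, n = 3).

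**Figure D4:**
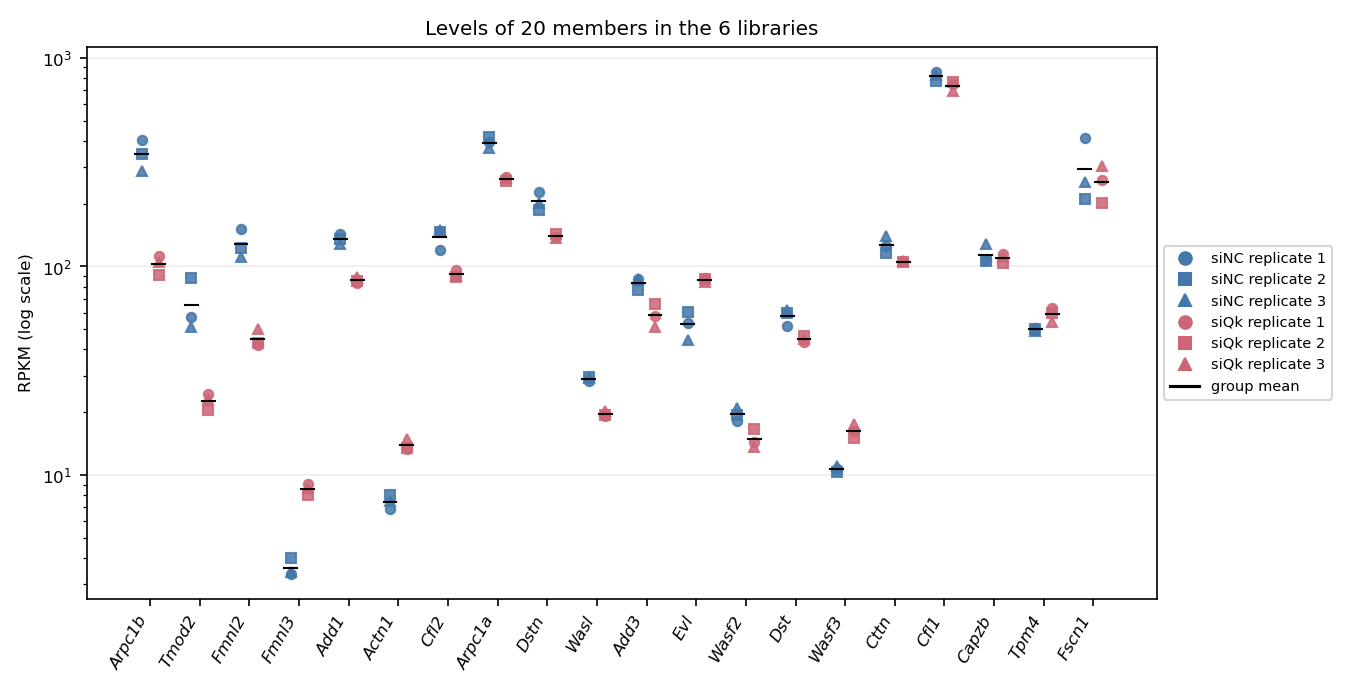
RPKM (log scale) of 20 members in the 6 libraries, namely the 15 called members with the largest changes and the most abundant member of each role class (blue, siNC; red, siQk; shape, replicate; line, group mean). Cfl1 lies highest at 695 to 855 RPKM, and Fmnl3 lowest at 3.37 to 9.08 RPKM.

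Over all 58 members, summed RPKM was 4837 ± 151 in siNC and 4085 ± 61 in siQk (SD, n = 3), a ratio of 0.844. The actin genes on which these proteins act were not called: Actb was at 925 to 1053 RPKM over the 6 libraries (-0.13, FDR 0.340) and Actg1 at 31.9 to 46.2 RPKM (-0.32, FDR 0.0815).

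Other genes of the actin pathway outside the members (84 listed, 77 tested) were called in 33 cases, 9 higher and 24 lower (42.9%, against 31.0% of all tested genes), with a median log2 fold change of -0.13. That median turned to 0.030 with library size as the only scaling, which moved the median of all tested genes from 0.010 to 0.16. Among the lowest called values of genes with an average log2 CPM above 3 were those of Ezr (-2.15, FDR 0.00116) and Msn (-1.33, FDR 0.000988), which tie actin to the membrane, Coro2b (-1.76, FDR 0.00095), a coronin, and the formin Inf2 (-1.42, FDR 0.0302). Above the same limit, the highest belonged to the coronin Coro1a (1.03, FDR 0.00511), the bundling protein Lima1 (0.40, FDR 0.00756), the cofilin phosphatase Ssh2 (0.35, FDR 0.0236), the drebrin gene Dbn1 (0.32, FDR 0.0171) and the nonmuscle myosin Myh10 (0.31, FDR 0.0246). The calls for Inf2, Ssh2, Dbn1 and Myh10 were each lost on leaving out any of several libraries. A list of SRF and MRTF targets outside the members (21 listed, 15 tested) also held Srf and the MRTF genes Mkl1 and Mkl2. Of the 15 tested, 2 were called (13.3%, against 31.0% of all tested genes). Fhl1 was lower (-1.22, FDR 0.000382) and Mkl1 higher (0.38, FDR 0.00793), and the median of the list was -0.012. The low share depended on the cutoff. Srf (0.38, FDR 0.040), Flna (0.40, FDR 0.043), Myh9 (0.34, FDR 0.037) and Myl9 (-0.51, FDR 0.045) missed only the P cutoff. All 4 would pass at FDR below 0.05 alone, where 36.9% of all tested genes were called.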

How the data were processed

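The 6 libraries were poly(A) selected and made with a TruSeq RNA kit (version 2), which does not mark strand. Per the file headers, the authors deposited for each gene an estimated count of tags, which need not be whole, and an RPKM value on mm10. The study's methods name OLego as the aligner and Quantas as the counting tool, with no versions given in the sources used here. Counts were rounded and tested with edgeR 4.0.16 in R 4.3.3 (quasi-likelihood test, TMM factors from 0.899 to 1.07, genes with average log2 CPM above 0, Benjamini-Hochberg adjustment over 12505 genes). The pipeline was tested on simulated data, where 13.2% of its calls were false, beside an FDR cutoff of 0.1. It is not stated if tags stand for single reads or for pairs, and intervals cover counting error only. Members and gene lists were chosen with earlier results of these data known. Statistics are given for the 15 called members with the largest changes and the most abundant member of each role; other members are given by log2 fold change, range or count, and from the other pathway genes the 5 highest and 5 lowest called with average log2 CPM above 3, of which 1 is not reported here. Where more than that is given for a member (Actr2, Actr3, Arpc4, Capza2, Add2, Enah, Fmn2, Diap2, Gsn, Macf1, Vasp, Cap1, Pfn1, Pfn2, Tmod3, Tpm1, Tpm3, Actn4), it was added after the values were seen. List genes under older symbols were matched by Entrez identifier. Alternatives were DESeq2 1.42.0, a likelihood ratio test, other scalings and filters, thinning, a replicate block, other cutoffs and leaving out each library. The labels call the replicates biological. Replicates of a group differed beyond sampling noise (chi-square per degree of freedom 36.3 to 326).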

Additional observations from a re-analysis of the deposited data

How the results depend on the processing

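At FDR below 0.05 with a log2 fold change of at least 1 in size, 4 of the 50 members tested were called. Of the 4, 1 was higher and 3 lower. The same cutoffs called 11 other pathway genes and 7.56% of all tested genes. With library size as the only scaling, 17 members were called, 6 higher and 11 lower, beside 34.8% of all tested genes. The median log2 fold change was then -0.0614 for members, turned to 0.0296 for the other pathway genes and stood at 0.16 for all tested genes. Leaving out 1 library gave 18 to 24 members called, 3 to 7 higher and 15 to 18 lower, and 21 (without siQk replicate 1) to 31 other pathway genes. Of all tested genes, the same fits called 19.8% (without siQk replicate 1) to 29.7% (without siNC replicate 3), against 31.0% with all libraries. Replicate numbers did not pair the libraries (correlations of same-numbered deviations -0.048, -0.127 and -0.323), and with a replicate block 20 members were called, 6 higher and 14 lower, and 2796 genes in all against 3879.

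Of 900 log2 fold changes of 60 named genes over the alternatives, 800 kept direction and call, 60 lost the call, 14 gained it and 26 changed sign, all 26 in members not called. Signs changed with upper quartile factors for Arpc3 (0.00994), Wasf1 (0.0436), Fmn1 (0.000466) and Tpm3 (0.0253). They changed with library size only for Arpc2 (0.0861), Arpc3 (0.102), Wasf1 (0.133), Fmn1 (0.0883), Cap1 (0.0338), Capza1 (0.00392), Tmod3 (0.0419), Tpm3 (0.126) and Actn4 (0.0656). Wasf1 was 0.00769 with no filter on low counts and Tpm3 0.0535 with the replicate block. Leaving out 1 library, values that crossed 0 ranged from -0.106 to 0.000938 for Arpc3, -0.0694 to 0.0366 for Wasf1, -0.159 to 0.0965 for Fmn1, -0.291 to 0.00494 for Cap1, -0.34 to 0.163 for Tpm3, -0.0387 to 0.213 for Actn3 and -0.559 to 0.0289 for Fscn1.

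Of 266 share differences recomputed for 38 paralogs, 249 kept their sign and moved by less than the replicate spread. Of the rest, 9 kept their sign and moved by more, and 8 changed sign. As shares of tags, the differences in percentage points were 2.79 for Wasf1, -6.42 for Wasf2, -7.6 for Diap2, 3.14 for Fmn1, 6.99 for Fmnl3, 7.21 for Cfl1, 1.43 for Tmod1, -18.6 for Tmod2 and 0.234 for Tmod4. Leaving out 1 library, those that crossed 0 ranged from -0.00987 to 0.0146 for Wasl, -0.305 to 1.19 for Cap1, -1.64 to 1.43 for Add3, -2.32 to 3.67 for Tpm3 and -0.00885 to 0.107 for Fscn1. With 1 mismatch allowed, 26.7% of members held a CArG box (19.4% of all). ACTAAC alone was in 20.0% of members (21.1% of all), and the shortest 3'UTR held a motif in 22.0% (19.1% of all). The cause of these changes was not tested.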
